A study of Mus musculus with 9 samples.

Results

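The genes described here are 46 known mouse imprinted genes, taken as a list and matched by symbol to gene spans on the mouse build mm10 (GRCm38.p6). All 46 were found among the 21896 genes measured, and they fall into 19 imprinted clusters. In each of 8 libraries a gene was called when at least 1 deposited H3K27me3 interval overlapped its span by at least 1 bp, and the share of the span under intervals was recorded as percent covered.

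H3K27me3, trimethylation of lysine 27 of histone H3, was mapped by chromatin immunoprecipitation sequencing in Lin-/c-Kit+ cells, the fraction of bone marrow that holds hematopoietic stem and progenitor cells, isolated fresh and never cultured. Cells came from female C57BL/6 mice that had been transplanted and then given vehicle or metformin, a biguanide drug, for 1 month. WT mice were Dnmt3a+/+ and RH mice carried a floxed Dnmt3a R878H allele beside a wild-type one (fl-R878H/+). All groups carried the Mx1-cre transgene, an interferon-inducible Cre that acts in hematopoietic and other cells. The 4 groups were WT VEH, WT MET, RH VEH and RH MET, with 2 libraries each, numbered 1 and 2 as in the labels. An input library was sequenced beside them, and no file of it was analysed here. The labels do not state donor ages, the chimerism of the transplanted mice, or whether each replicate was a different mouse. The p-values therefore compare libraries, and their spread may be technical in part.

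Imprinted genes are expressed mainly or only from the maternal or the paternal allele, some of them in certain tissues or isoforms alone. At many of them the choice is set by differentially methylated regions. There DNA methylation was laid down in the germ line on the allele of 1 parent. Dnmt3a is among the enzymes that write it. Dnmt1 and, in the early embryo, the zinc finger protein Zfp57 are among the proteins that keep it. In several clusters a long noncoding RNA made from the unmethylated allele, such as Kcnq1ot1 or Airn, silences its neighbours in cis, and Polycomb repressive complex 2, which writes H3K27me3, takes part in this in the placenta. The interval lists used here do not separate the alleles.

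The promoters below were chosen to show the contrast within 1 stretch of chromosome 7, the Kcnq1 cluster, together with Cd81 and Ndn. Phlda2 and Ascl2 were covered whole in every library, and Kcnq1ot1 and Tspan32 had no interval in any. Cd81 and Ndn, whose calls separated RH MET from WT MET, were added after their values were seen. Each run is the 250 bases before the gene's start, 5′ to 3′ on the gene's strand, from RefSeq (GRCm38.p6), with CpG dinucleotides in capitals. Phlda2 lies at chr7:143502525-143502774 (minus strand, 21 CpG), Ascl2 at chr7:142969265-142969514 (minus, 19 CpG), Kcnq1ot1 at chr7:143296548-143296797 (minus, 5 CpG), Tspan32 at chr7:143004796-143005045 (plus, 1 CpG), Cd81 at chr7:143052500-143052749 (plus, 16 CpG) and Ndn at chr7:62348027-62348276 (plus, 5 CpG).
Phlda2: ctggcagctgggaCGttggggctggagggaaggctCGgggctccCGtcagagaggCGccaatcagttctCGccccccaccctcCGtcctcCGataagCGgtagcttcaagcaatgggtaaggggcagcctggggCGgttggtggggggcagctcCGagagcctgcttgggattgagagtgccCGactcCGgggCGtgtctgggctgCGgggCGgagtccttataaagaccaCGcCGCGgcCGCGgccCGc
Ascl2: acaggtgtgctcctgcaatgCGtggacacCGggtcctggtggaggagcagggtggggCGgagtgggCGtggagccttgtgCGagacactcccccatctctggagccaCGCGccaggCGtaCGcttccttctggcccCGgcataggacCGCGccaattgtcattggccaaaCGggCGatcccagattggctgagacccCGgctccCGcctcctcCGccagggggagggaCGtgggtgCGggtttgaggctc
Kcnq1ot1: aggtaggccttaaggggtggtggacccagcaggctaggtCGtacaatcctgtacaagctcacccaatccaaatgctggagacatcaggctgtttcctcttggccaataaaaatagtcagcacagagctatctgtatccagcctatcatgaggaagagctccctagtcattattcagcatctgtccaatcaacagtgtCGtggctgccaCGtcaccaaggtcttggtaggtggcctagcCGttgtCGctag
Tspan32: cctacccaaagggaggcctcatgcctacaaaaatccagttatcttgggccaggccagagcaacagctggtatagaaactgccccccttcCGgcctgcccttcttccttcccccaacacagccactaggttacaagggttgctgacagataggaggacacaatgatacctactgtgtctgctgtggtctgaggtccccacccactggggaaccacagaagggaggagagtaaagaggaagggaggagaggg
Cd81: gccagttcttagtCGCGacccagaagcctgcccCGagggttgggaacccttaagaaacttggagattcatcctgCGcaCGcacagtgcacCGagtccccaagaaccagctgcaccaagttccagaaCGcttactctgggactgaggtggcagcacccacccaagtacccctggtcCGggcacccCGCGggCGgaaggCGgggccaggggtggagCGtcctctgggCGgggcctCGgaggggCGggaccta
Ndn: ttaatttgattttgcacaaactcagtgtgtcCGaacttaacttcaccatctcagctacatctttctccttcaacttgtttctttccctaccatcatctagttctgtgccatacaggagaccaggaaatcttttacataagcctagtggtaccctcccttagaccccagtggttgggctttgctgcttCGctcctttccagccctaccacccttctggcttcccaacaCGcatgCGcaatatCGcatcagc

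Of the 46 imprinted genes, 26 (56.5%) were called in all 8 libraries, 8 in 1 to 7 libraries and 12 in none. Over all 21896 genes, 5443 (24.9%) were called in all 8, 3161 in 1 to 7 and 13292 (60.7%) in none. Per library, 27 to 33 imprinted genes were called (58.7% to 71.7%), against 27.2% to 34.1% of all genes. The median span was 24.3 kb for the imprinted genes and 17.2 kb for all genes, and a longer span has more room for an interval. Among called genes, the median percent covered was 29.9 to 46.1 for imprinted genes and 16.8 to 31.3 for all genes. Summit height, the deposited score of each interval, was ranked within each library, and the median percentile of called imprinted genes was 57.9 to 72.0, below the 75.3 to 80.9 of all called genes. The 46 imprinted genes were called more often than genes at large and with wider cover, under intervals of lower rank. This describes a chosen list, and the second list of imprinted genes given below did not share its cover and rank.

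**Figure D1:**
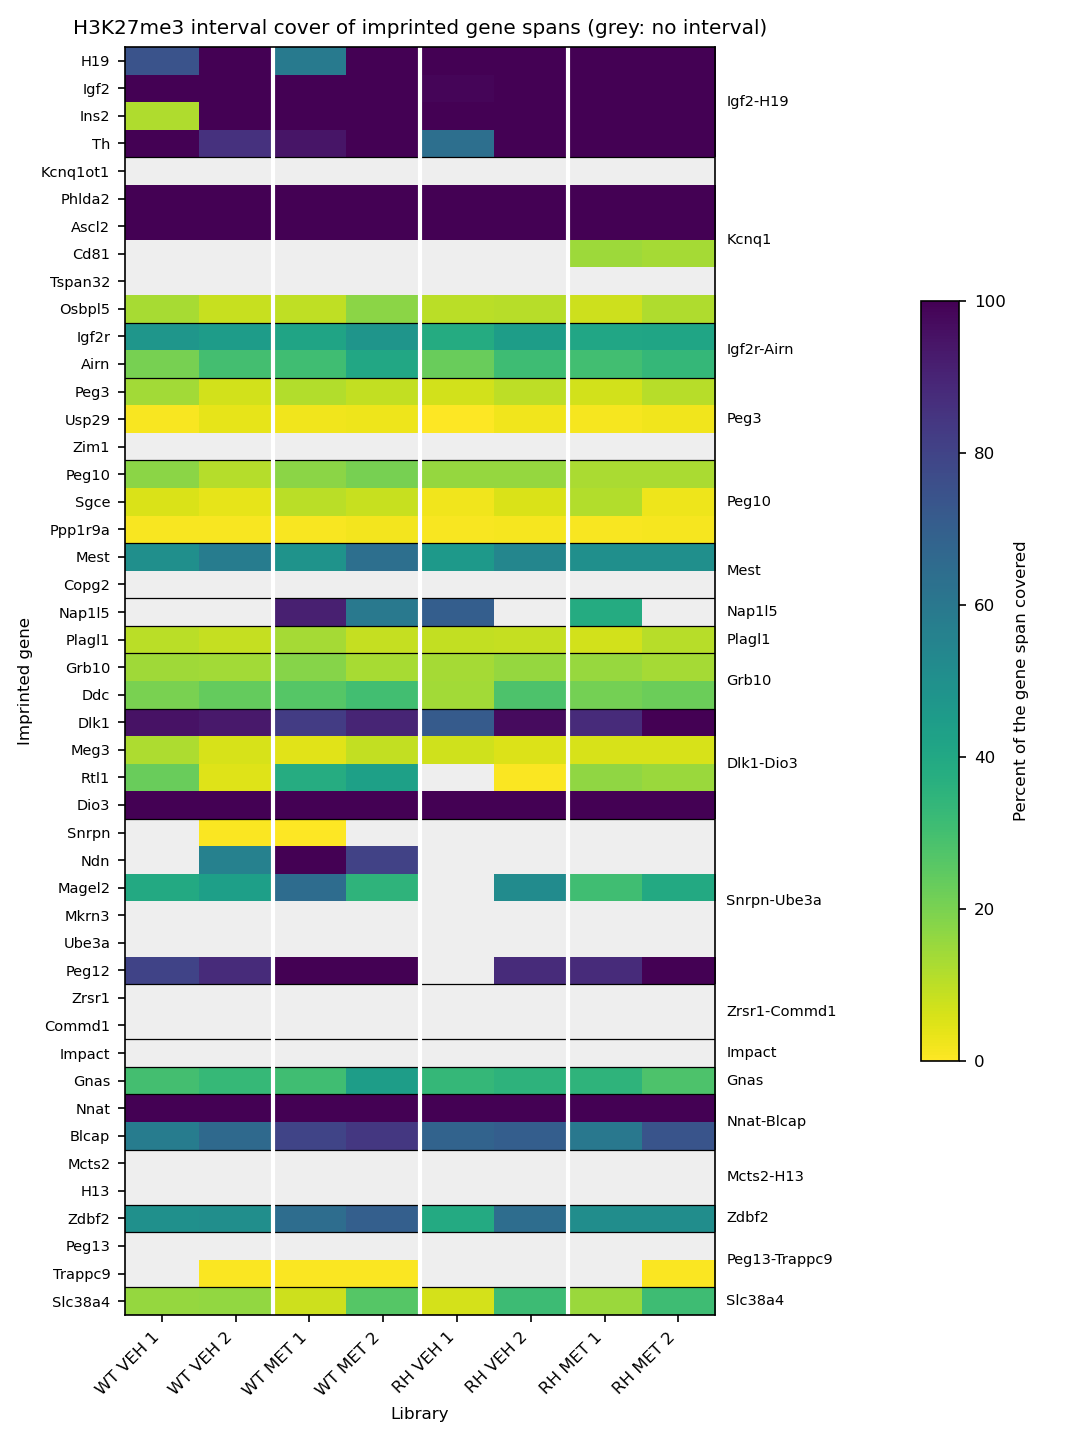
Percent of each gene span covered by H3K27me3 intervals (colour, 0 to 100) for the 46 imprinted genes (rows, by cluster) in the 8 libraries (columns, 2 per group), with grey for no interval. Most rows look alike in all columns, 12 rows are grey throughout, and Cd81, Nap1l5 and Ndn change between columns.

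The libraries differed in how much was called. They held 11620 to 16879 intervals, covering 80.0 Mb (RH VEH 1) to 186 Mb (WT MET 2), with a median summit height of 12 in RH VEH 1 and 14 to 17 in the others. Read depth is unknown, and the height has no stated unit, so absence of an interval means only that none was called. RH VEH 1 lacked intervals at 3 imprinted genes that the other 7 libraries called, Rtl1, Magel2 and Peg12. As reference genes, Pax6, a developmental regulator silent in blood, was covered from 89.8% to 96.6% and Actb, a housekeeping gene, had no interval in any library. Kit, whose protein was used to enrich the cells, was covered from 5.89% to 8.58% in the 4 WT libraries, 0.996% in RH MET 1 and 0% in the other 3. The mark does not by itself identify a cell type.

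The 4 genes of the Igf2-H19 cluster were marked in all 8 libraries. Igf2, a fetal growth factor gene expressed from the paternal allele, was covered whole in 7 libraries and to 98.5% in RH VEH 1, with summit heights of 58 and 75 in WT VEH 1 and 2, 79 and 93 in WT MET, 35 and 53 in RH VEH, and 84 and 72 in RH MET. H19, a maternally expressed noncoding RNA, was covered to 74.4% in WT VEH 1, 59.1% in WT MET 1 and 100% in the other 6, but its summits were lower, from 11 to 27. No single interval spanned both H19 and Igf2 in any library. Ins2, an insulin gene, was covered to 11.8% in WT VEH 1 and whole in the other 7, and Th, tyrosine hydroxylase, ranged from 63.7% to 100%. The groups overlapped or tied at 100% for all 4 genes.

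In the Kcnq1 cluster the genes split. Phlda2, a maternally expressed restrainer of placental growth, and Ascl2, a maternally expressed transcription factor of trophoblast, were covered to 100% in all 8 libraries. Summit heights at Phlda2 were 67 and 79 in WT VEH 1 and 2, 75 and 92 in WT MET, 48 and 66 in RH VEH, and 79 and 73 in RH MET. At Ascl2 they were 49 and 73, 84 and 78, 36 and 49, and 85 and 59 in the same order. Osbpl5, an oxysterol-binding protein gene, was covered from 7.62% to 17.3%. Kcnq1ot1, the paternally expressed noncoding RNA, and Tspan32, a tetraspanin of blood cells, had no interval in any library. Kcnq1, the protein-coding gene within which Kcnq1ot1 is transcribed in antisense, was called in all 8. As Kcnq1ot1 had no interval, none could be shared by the 2 transcripts. The RefSeq promoter windows hold 26 CpG at Phlda2, 23 at Ascl2, 9 at Kcnq1ot1 and 2 at Tspan32 over 300 bp. Other windows of the cluster did not follow CpG number. Those of Osbpl5 hold 16, 1 and 21 CpG and were overlapped in 1, 8 and 8 libraries. The Cd81 window holds 23 CpG and was overlapped in 2.

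**Figure D2:**
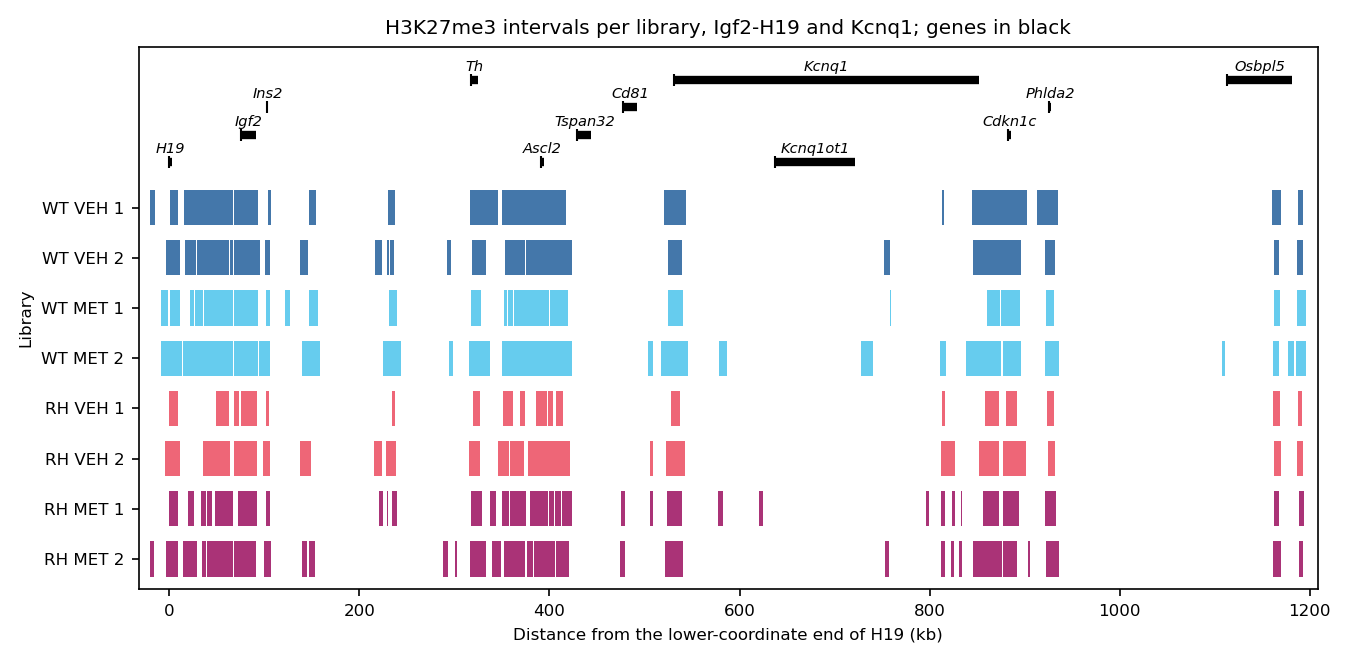
H3K27me3 intervals (coloured bars, colour by group) in the 8 libraries across the Igf2-H19 and Kcnq1 clusters, by distance in kb from the lower-coordinate end of H19, with gene spans in black. Bars stand over Igf2, Ascl2 and Phlda2 in every library, and over the Cd81 start in RH MET 1 and RH MET 2 only.

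Cd81, a tetraspanin gene of the Kcnq1 cluster, was the single imprinted gene to pass the limma threshold in any of the contrasts fitted. It was covered to 14.8% in RH MET 1 and 13.5% in RH MET 2, a mean of 14.2% ± 0.932 (SD, n = 2), and to 0% in the other 6 libraries. The interval lay at chr7:143050401-143055000 with a summit height of 14 in RH MET 1, and at chr7:143049601-143054800 with a height of 17 in RH MET 2. Both overlapped the promoter printed above, and the RH MET 1 summit stood 83 bp after the start. The difference from WT MET was 0.39 (SE 0.00819) on the arcsine-square-root scale of the fraction covered, with a limma Benjamini-Hochberg adjusted p of 0.000138, and the same difference from RH VEH had an adjusted p of 0.000227. The genotype by treatment interaction was 0.39 (SE 0.0116), with a limma adjusted p of 0.000562. The standard error rests on 6 libraries at exactly 0, where the spread is 0 by construction. When each library was centred on its mean over all genes, a choice made after seeing the data, the limma adjusted p became 0.221 against WT MET, 0.770 against RH VEH and 0.974 for the interaction. With summit heights of at least 15 alone, only the RH MET 2 interval was kept, and those values were 0.806, 0.987 and 0.911. An exact permutation test of 2 libraries against 2 cannot go below 0.33.

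The call at Cd81 stood beside the following background over the 8604 genes with an interval in at least 1 library. Presence in each RH MET library with absence from each WT MET library held for 0.883% of them, and the same with absence from each RH VEH library for 2.74%. Cd81 was the 1 imprinted gene, of 34 with an interval, that met either rule. By the limma test 0.755% of genes passed in RH MET versus WT MET, 0.488% in RH MET versus RH VEH and 0.535% in the interaction, and Cd81 was the 1 imprinted gene called in each. Both contrasts share the RH MET libraries and are not separate support.

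Ndn, a paternally expressed MAGE family gene of the Prader-Willi region, had the opposite distribution by genotype. It was covered to 0% and 55.9% in WT VEH 1 and 2, 100% and 80.1% in WT MET 1 and 2, and 0% in all 4 RH libraries. The intervals were chr7:62348001-62349200 in WT VEH 2, chr7:62347801-62350200 in WT MET 1 and chr7:62348201-62349600 in WT MET 2, with summit heights of 9, 13 and 14. It was the 1 imprinted gene present in each WT MET and absent from each RH MET library, which held for 2.12% of genes. The RH MET versus WT MET difference of -1.34 (SE 0.324) had a limma adjusted p of 0.559, and that for genotype averaged over treatment was -0.88 (SE 0.229) with a limma adjusted p of 0.459, so neither passed. With the 11620 highest summits of each library alone, Ndn was called in 1 library, and with heights of at least 15 in none.

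The neighbours of Ndn were marked in both genotypes. Magel2, another paternally expressed MAGE gene, was covered to 39.1% and 43.4% in WT VEH 1 and 2, 64.8% and 34.8% in WT MET, 0% and 52.0% in RH VEH, and 30.5% and 39.1% in RH MET. Peg12, a paternally expressed gene related to the Wnt pathway regulator Frat1, was covered to 79.9% and 87.5%, 100% and 100%, 0% and 87.5%, and 87.5% and 100% in the same order. Both were missed in RH VEH 1 alone. The WT MET values of Peg12 lay above its WT VEH values, while those of Magel2 overlapped. With summit heights of at least 15, Magel2 was called in 4 libraries. Snrpn, a small nuclear ribonucleoprotein gene with the imprinting centre of this cluster at its promoter, was covered to 0.470% in WT VEH 2, 0.257% in WT MET 1 and 0% in the other 6. Its interval lay at the last of its 4 listed starts in both libraries. Mkrn3, a ring finger gene, and Ube3a, a ubiquitin ligase gene imprinted in neurons, had no interval in any library.

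**Figure D3:**
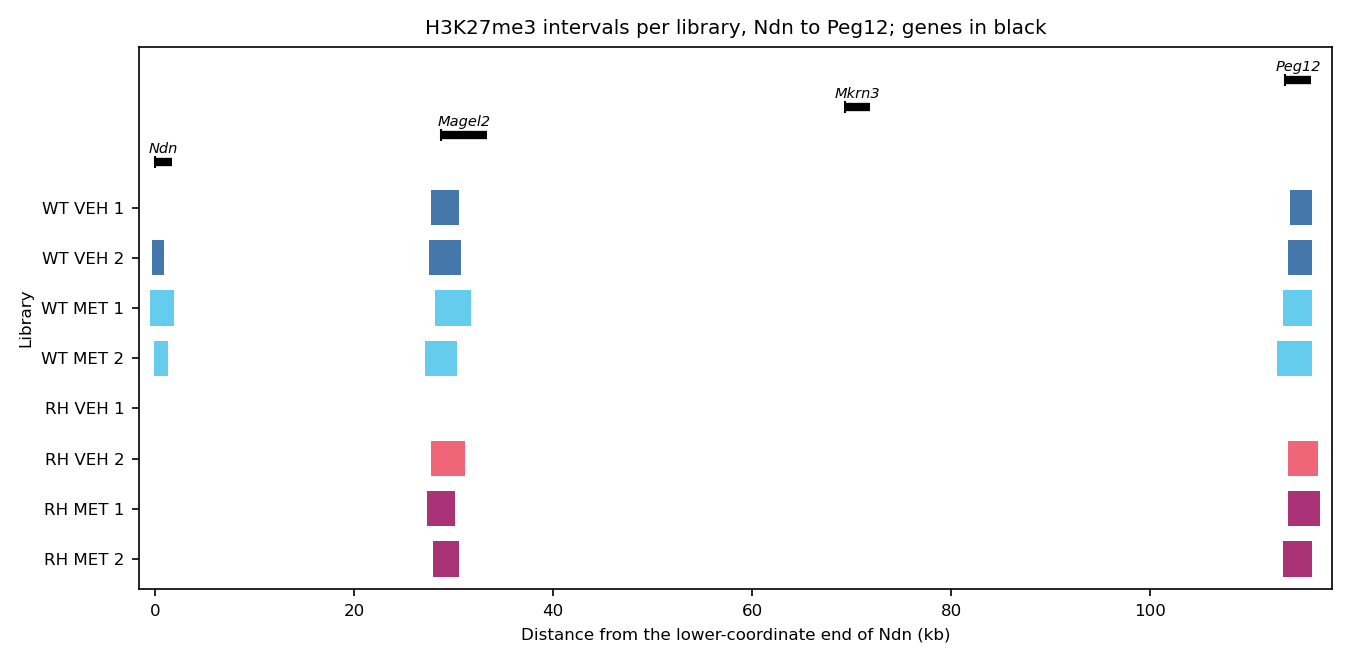
H3K27me3 intervals (coloured bars, colour by group) in the 8 libraries from Ndn to Peg12, by distance in kb from the lower-coordinate end of Ndn, with gene spans in black. Magel2 and Peg12 have a bar in every library except RH VEH 1, Mkrn3 has none, and Ndn has one in WT VEH 2, WT MET 1 and WT MET 2.

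Nap1l5, a retrogene expressed from the paternal allele inside an intron of Herc3, was covered to 0% in WT VEH 1 and 2, 91.1% and 59.5% in WT MET 1 and 2, 70.01% and 0% in RH VEH, and 38.3% and 0% in RH MET. Summit heights were 16, 19, 10 and 20 in the 4 libraries with an interval. It was the 1 imprinted gene present in each WT MET and absent from each WT VEH library, against 2.14% of genes. The groups did not overlap between WT VEH and WT MET, and the RH libraries lay on both sides. The WT MET versus WT VEH difference was 1.07 (SE 0.422) with a limma adjusted p of 0.976, and the interaction was -1.24 (SE 0.597) with a limma adjusted p of 0.972. Herc3, which was not among the 46, was called in the same 4 libraries through the same intervals.

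The Dlk1-Dio3 cluster was marked at its ends and at places between them. Rian, a noncoding RNA gene named after its values were seen, was called in 8 libraries and covered from 12.8% to 36.1%. Every library also had an interval that began 728 to 733 kb from the lower-coordinate end of Dlk1, with heights of 23 to 46. Dio3, a paternally favoured thyroid hormone deiodinase gene, was covered to 100% in all 8 libraries, with heights of 51 and 57 in WT VEH 1 and 2, 56 and 64 in WT MET, 33 and 40 in RH VEH, and 54 and 45 in RH MET. Dlk1, a paternally expressed Notch-related ligand gene, ranged from 71.1% in RH VEH 1 to 100% in RH MET 2. Meg3, a maternally expressed noncoding RNA, was covered from 4.57% to 12.4%, with an interval over the first of 2 listed starts in every library. Rtl1, a paternally expressed retrotransposon-derived gene with maternal antisense microRNAs, was covered to 22.8% and 5.06% in WT VEH 1 and 2, 38.0% and 43.1% in WT MET, 0% and 0.552% in RH VEH, and 16.7% and 15.2% in RH MET. Each WT MET value was above each WT VEH value, each RH MET value above each RH VEH value and each RH value below both WT values of its own treatment, while RH MET and WT VEH overlapped. Rtl1 was called in 3 libraries with summit heights of at least 15 and in 4 with the 11620 highest summits of each library. The intervals of that height, in WT MET 1, WT MET 2 and RH VEH 2, had their summits beyond Rtl1, within the neighbouring Rian. They reached into the Rtl1 span, and in RH VEH 2 this was its only cover, 0.218 kb. The treatment difference averaged over genotype was 0.35 (SE 0.0681) with a limma adjusted p of 0.337, and the genotype difference was -0.30 (SE 0.0681) with a limma adjusted p of 0.361. Of 58 microRNA hairpins listed between Dlk1 and Dio3, 4 to 10 lay in an interval per library.

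**Figure D4:**
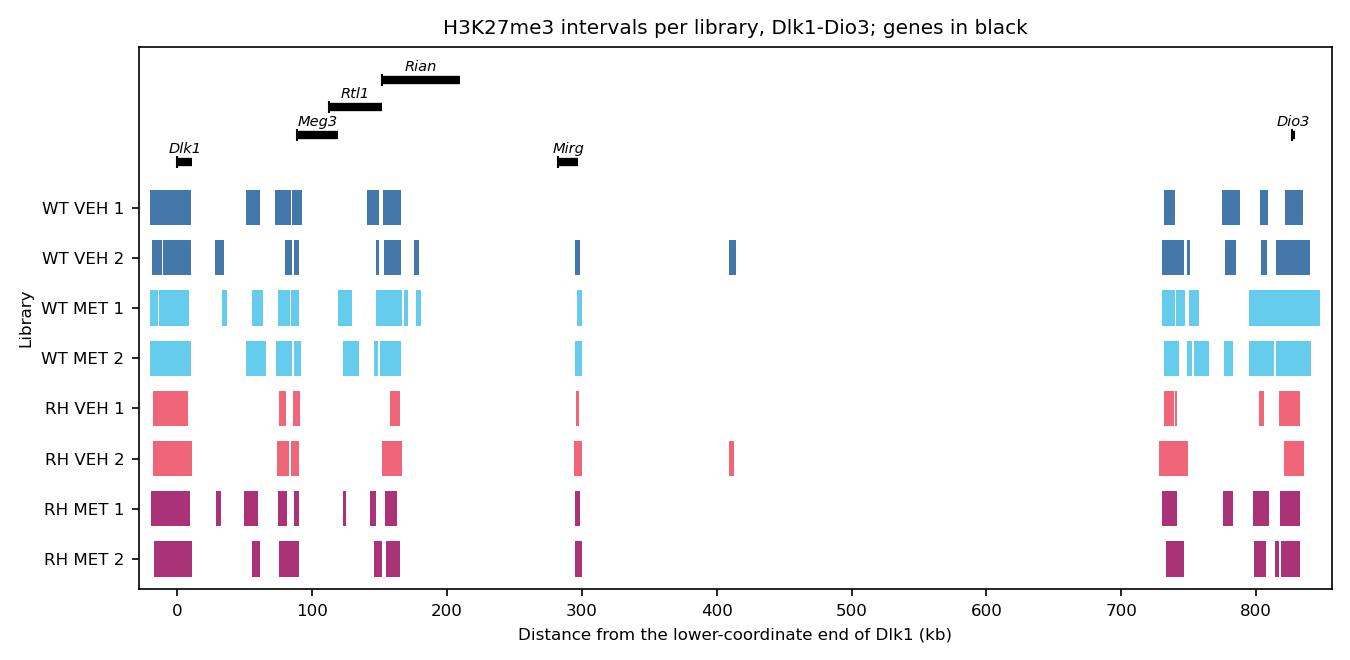
H3K27me3 intervals (coloured bars, colour by group) in the 8 libraries from Dlk1 to Dio3, by distance in kb from the lower-coordinate end of Dlk1, with gene spans in black. Every library has bars over Dlk1, the Meg3 start, Rian and Dio3. The stretch between Mirg and the Dio3 end has few bars, with one that begins at 728 to 733 kb in every library.

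Genes that carry a noncoding or retrogene partner differed in whether an interval joined the pair. Igf2r, a maternally expressed receptor that clears Igf2, was covered to 47.5% and 44.8% in WT VEH 1 and 2, 41.6% and 47.8% in WT MET, 38.4% and 44.3% in RH VEH, and 40.9% and 41.1% in RH MET. Its antisense RNA Airn ranged from 20.7% to 39.9%, and 1 interval lay over both genes in all 8 libraries. Their spans overlap, so this interval can lie in the shared stretch. Nnat, a paternally expressed neuronatin gene within an intron of Blcap, was covered to 100% in every library and Blcap from 58.0% to 83.6%. Their shared interval in all 8 follows from position, because the span of Nnat lies wholly within that of Blcap. Peg10 and Sgce, which start back to back, also shared an interval in all 8. Mest, a paternally expressed hydrolase gene, was covered to 50.1% and 58.1%, 48.8% and 63.5%, 46.1% and 54.1%, and 50.1% and 50.1% in the same order, whereas its overlapping neighbour Copg2 had none. Peg13 lies within Trappc9 and had no interval, and Trappc9 was covered to 0.424% in WT VEH 2, 0.636% in WT MET 1 and 2, 0.424% in RH MET 2 and 0% in the other 4.

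In the Peg3 and Peg10 clusters every gene except Zim1 was marked in all 8 libraries over a part of its span. Peg3, a zinc finger gene, was covered to 13.8% and 7.01% in WT VEH 1 and 2, 11.5% and 9.27% in WT MET, 7.01% and 10.02% in RH VEH, and 7.01% and 10.8% in RH MET, and its neighbour Usp29 from 0.187% to 3.74%. Peg10, a retrotransposon-derived gene, was covered to 17.4% and 11.3%, 17.4% and 20.4%, 15.9% and 15.9%, and 12.8% and 12.8% in the same order. In RH VEH the intervals over Peg10 had heights of 11 and 13, below 15, with their summits in the span of Sgce. With heights of at least 15 alone Peg10 had no cover in RH VEH. There it passed by limma in RH VEH versus WT VEH (-0.39, adjusted p 0.0216) and RH MET versus RH VEH (0.37, adjusted p 0.0230), with the signs opposite to the 0.02 and -0.04 of all intervals. The cutoff itself set both RH VEH values to 0, and both RH MET values were 12.8%. Neither group added spread to the standard error, with all intervals or with the cutoff, and it was 0.0323 in both fits. The cutoff moved the differences and left the spread as it was. Sgce ranged from 2.202% to 11.5% and Ppp1r9a from 0.810% to 1.65%. In these long spans the intervals included the starts: all listed starts of Peg3, Usp29 and Ppp1r9a lay in an interval in 8 libraries.

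Plagl1, a zinc finger regulator of growth, was covered to 10.2% and 8.73% in WT VEH 1 and 2, 13.6% and 8.73% in WT MET, 9.22% and 8.73% in RH VEH, and 6.78% and 10.7% in RH MET. Ddc, dopa decarboxylase, was covered to 20.2% and 23.6%, 26.4% and 30.2%, 13.8% and 27.8%, and 20.9% and 22.6%, although neither of its listed starts lay in an interval. Grb10, a growth factor receptor adaptor in the same cluster, ranged from 12.9% to 17.98%. For Plagl1 the groups overlapped, whereas both WT MET values of Ddc lay above both WT VEH and both RH MET values.

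Gnas, which encodes a G protein subunit and several imprinted transcripts, was covered to 29.9% and 33.1% in WT VEH 1 and 2, 30.6% and 44.3% in WT MET, 33.4% and 35.4% in RH VEH, and 35.1% and 28.0% in RH MET. Only 1 of its 4 listed starts, the farthest upstream, lay in an interval, in all 8 libraries. Zdbf2, a paternally expressed gene with an upstream imprinted transcript, was covered to 49.9% and 50.6%, 64.1% and 69.9%, 38.7% and 64.3%, and 50.8% and 51.1% in the same order, with its downstream start marked in 8 libraries and its upstream start in 2. Slc38a4, an amino acid transporter gene, was covered to 15.6% and 16.3%, 7.78% and 26.4%, 6.47% and 31.3%, and 15.0% and 31.0%, with 1 of 3 starts marked in every library. Zim1, Zrsr1, Commd1, Impact, Mcts2 and H13 had no interval in any library.

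By expressed allele, as assigned from general knowledge, 6 of 8 maternally expressed genes were called in all 8 libraries and 2 in none. Of 26 paternally expressed genes, 14 were called in all 8, 6 in 1 to 7 and 6 in none. Of 12 genes whose imprint depends on tissue or isoform, 6 were called in all 8, 2 in 1 to 7 and 4 in none. Over all genes, 24.9% were called in all 8 and 60.7% in none.

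At the level of starts, RefSeq gave 59 promoter windows of 300 bp for 38 of the 46 genes. An interval overlapped 28 of them (47.5%) in all 8 libraries and 22 (37.3%) in none, against 19.3% and 67.6% of 21269 windows over all genes. Among windows with at least 10 CpG, 20 of 40 imprinted windows (50%) were overlapped in all 8, against 26.4% of all such windows. Among windows with fewer CpG, the counts were 8 of 19 (42.1%) and 9.97%. The letters TGCCGC were searched on both strands as the core of the motif that Zfp57 binds when methylated. They were present in 15 of 59 imprinted windows (25.4%) and in 14.1% of all windows of the same length. The letters hold a CpG themselves. With at least 10 CpG the shares were 35% of imprinted and 22.4% of all windows, and with fewer 5.26% and 3.25%. None of the 6 promoters printed above holds these letters. Windows of 1 gene can overlap each other and are not independent.

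**Figure D5:**
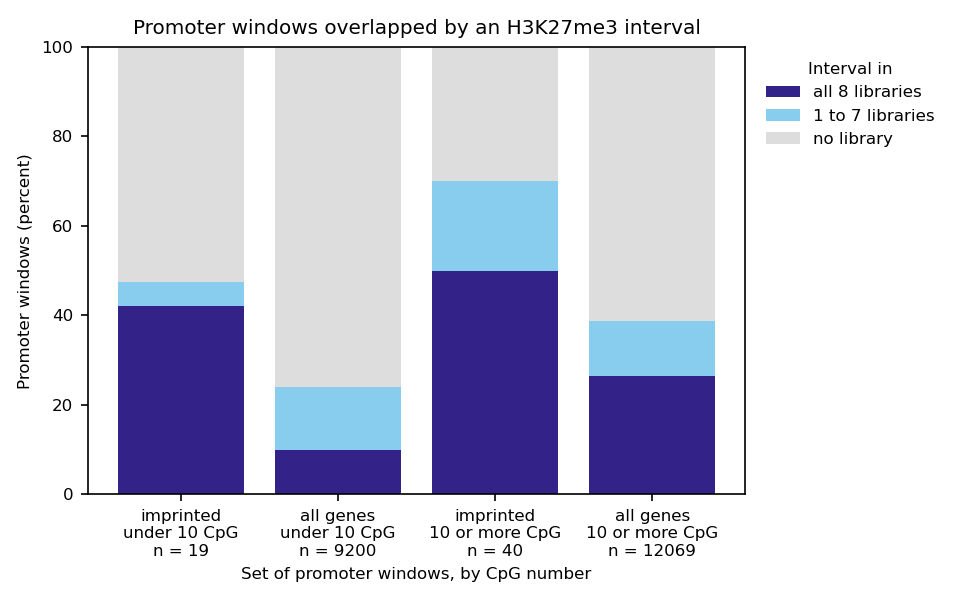
Share of 300 bp promoter windows (percent, stacked to 100) overlapped by an H3K27me3 interval in all 8, in 1 to 7 or in no library, for imprinted and all genes split at 10 CpG. Dark bars reach 42.1% and 50% for the imprinted sets, and 9.97% and 26.4% for all genes.

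Between RH VEH and WT VEH no imprinted gene differed by calls in both libraries or by limma. None was present in each RH VEH and absent from each WT VEH library (0.395% of genes), or the reverse (2.19%). By limma 0 imprinted genes and 0.291% of all genes passed, and at an unadjusted p under 0.05 there was 1 of 34 (2.94%), Rtl1, with a limma adjusted p of 0.890, against 4.89% of all genes. In WT MET versus WT VEH, 0 passed by limma against 0.488% of genes, 3 of 34 (8.82%) had an unadjusted p under 0.05 against 4.39% of all genes, and the smallest limma adjusted p was 0.907 at Blcap. Presence in each vehicle library with absence from each metformin library held for 0 imprinted genes in WT (0.5% of genes) and 0 in RH (0.186%).

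By percent covered, groups could separate without a difference in calls, and this was counted after the values were seen. Every RH VEH value lay above every WT VEH value for 2 of the 34 imprinted genes with an interval, Blcap and Gnas, against 2.8% of all genes, and below for Rtl1 and Igf2r, against 15.5%. Every RH MET value lay above every WT MET value for Cd81 (4.73% of genes) and below for 10 genes, or 29.4% against 23.7% of all genes. The 10 were Zdbf2, Blcap, Peg10, Nap1l5, Usp29, Ndn, Ddc, Rtl1, Trappc9 and Igf2r.

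Every RH MET value lay above every RH VEH value for Cd81 and Rtl1, against 11.6% of genes, and below for Peg10 (3.85%). Every WT MET value lay above every WT VEH value for 10 genes, or 29.4% against 15.9% of all genes, namely Zdbf2, Blcap, Sgce, Nap1l5, Ndn, Peg12, Ddc, Rtl1, Trappc9 and Airn, and below for Dlk1 (6.39%). The WT MET libraries enter both counts of 10, and WT MET 2 also had the greatest covered length. Of these genes, Cd81 alone passed by limma.

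Averaged over treatment, 25 of 34 imprinted genes had lower and 5 had higher cover in RH than in WT libraries, with a median difference of -0.03, while the median over all 8604 genes was also -0.03. By limma 0.802% of genes passed and Cd81 was the 1 imprinted gene called, from the RH MET libraries described above (adjusted p 0.000506). Averaged over genotype, 26 were higher and 4 lower with metformin, with a median of 0.03 beside 0.02 over all genes. There 0.825% of genes passed, and Cd81 again was the 1 imprinted gene called (adjusted p 0.000533). An exact permutation test of 4 libraries against 4, two-sided with a smallest p of 0.0286, called 0 genes after adjustment in either comparison.

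Among 39 other imprinted genes, from a second list of 40 of which Zfp264 was not matched, 22 to 25 were called per library (56.4% to 64.1%, against 27.2% to 34.1% of all genes) and 19 in all 8 (48.7%, against 24.9%). Where called, their median percent covered was 6.77 to 16.4, below the 16.8 to 31.3 of all called genes. Their median summit percentile was 77.6 to 87.6, against 75.3 to 80.9 for all called genes. Wider cover and lower rank were thus traits of the 46, not of both lists. Slc22a2, an organic cation transporter gene beside Igf2r, was covered to 14.5% in WT VEH 1, 5.90% in RH MET 1, 8.15% in RH MET 2 and 0% in the other 5. It therefore met the rule for both RH MET and neither WT MET or RH VEH library, but was also called in a WT library. Among 16 regulators of imprints, 2 to 4 were called per library (12.5% to 25%), below the share of all genes. The 2 called in all 8, picked out after their values were seen, were Zfp57, covered from 42.2% to 81.9%, and Dnmt3a, covered from 0.709% to 8.19%.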

How the data were processed

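Chromatin of 8 H3K27me3 libraries was sequenced. Per the submitters' processing notes, bcl2fastq 2.20, BWA 0.7.12 and the build mm10 were used, with no role stated. The interval caller is not given in the sources used here, nor are its filters. The authors deposited an interval list and a summit list for each library and merged regions over all libraries. The deposited summit height is a score in whole numbers, with no unit. All edges fall on a 200 bp grid.

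Gene spans came from RefSeq (GRCm38.p6). For each gene, calls, percent covered and the highest summit were computed with Python 3.11.15, and percent covered (as the arcsine of the square root of the fraction) was tested with limma 3.58.1 in R 4.3.3, robust empirical Bayes, over 8604 genes with an interval in at least 1 library. Adjusted p-values are Benjamini-Hochberg values over those genes, with a threshold of 0.05. The members and lists were chosen with earlier results of these data known. Values in every library were given for genes called in 1 to 7 libraries and for the gene of highest median cover in each cluster, genes called in none were named, and from the other lists the genes that separated groups. The script was tested on simulated data for genotype averaged over treatment. It recovered 27 of 100 genes shifted by 0.25 and 50 of 100 shifted by 0.5, with 1 false call. A gene that did not pass is therefore not shown to be unchanged. Alternatives were a summit height of at least 15, the 11620 highest summits per library, spans extended by 2500 bp, cover of at least 10%, untransformed cover, a replicate block, each library left out, exact permutation and, after seeing the data, centred libraries.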

Additional observations from a re-analysis of the deposited data

Results flagged for a closer look

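Cd81 was the 1 imprinted gene for which the effect of metformin differed between genotypes by the limma interaction term, with a value of 0.39 (SE 0.0116, adjusted p 0.000562) on the arcsine-square-root scale. Cover was 14.8% and 13.5% in the RH MET libraries and 0% in the other 6. The call was lost when libraries were centred and when summits under a height of 15 were left out.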

How the results depend on the processing

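Read depth is unknown, the smallest exact p of 2 libraries against 2 is 0.33, and a missing interval is not proof of a missing mark. The planned fit over all genes without a filter could not be fitted, because most genes have no spread.

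With summit heights of at least 15, the median percent covered over imprinted genes fell from 12.2 to 5.21. Imprinted genes called in both libraries of a group and neither of the other numbered 2 for WT VEH over RH VEH (0 before), 0 for RH MET over WT MET, 4 for RH MET over RH VEH and 2 for WT MET over WT VEH (1 before in each), and 2 for RH MET over RH VEH with cover of at least 10%. With heights of at least 15, the rule for WT VEH over RH VEH held for 280 genes of the whole table (188 before). That for RH MET over WT MET held for 31 (76 before). By limma, 1 imprinted gene, Peg10 in place of Cd81, passed in RH VEH versus WT VEH, RH MET versus RH VEH, genotype and treatment, and 0 in RH MET versus WT MET and in the interaction, while genes passing over the whole table rose to between 86 and 136 from 25 to 71. With centred libraries, 0 imprinted genes passed in RH MET versus WT MET, RH MET versus RH VEH, genotype, treatment and the interaction, and 4 to 14 genes over the whole table. The exact permutation test called 0 for genotype and 0 for treatment. Untransformed cover called 12 to 45 genes, and the 11620 highest summits per library 26 to 47. Counts over the whole table of genes present in each library of a group and absent from the other group, 16 to 236, became 3 to 422 with heights of at least 15, 43 to 171 with equal numbers of intervals, 21 to 201 with extended spans, 23 to 221 with cover of at least 10% and 52 to 711 with a library left out. Imprinted genes with groups apart in percent covered numbered, with heights of at least 15, 1 for RH VEH above WT VEH, 5 for RH MET above and 0 below RH VEH and 2 for WT MET below WT VEH. With equal numbers of intervals they were 1 for RH VEH below WT VEH, 2 for RH MET above WT MET, 2 for RH MET below RH VEH and 6 for WT MET above WT VEH, and with extended spans 1 for RH VEH above WT VEH and 0 for RH MET below RH VEH. The 142 and 210 genes of the whole table for RH VEH above WT VEH and RH MET below RH VEH at heights of at least 15 stood at 241 and 331 with all intervals. The cause of these shifts was not tested.

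Replicate numbers did not pair the samples: 6 correlations of same-numbered deviations ran from -0.0297 to 0.164, with 1 over 0.1. A fit with the replicate block called 12 to 43 genes, and for Cd81 gave limma adjusted p of 0.00286 (RH MET versus WT MET), 0.00516 (RH MET versus RH VEH) and 0.00851 (interaction). The block left the number of imprinted genes called as it was in each contrast.

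Leaving out each library in turn gave these ranges of imprinted genes called in a group and not in the other: 0 to 1 for RH VEH over WT VEH (1 without RH VEH 2), 0 to 3 for WT VEH over RH VEH (3 without WT VEH 1 or RH VEH 2), 1 to 1 for RH MET over WT MET, 1 to 2 for WT MET over RH MET (2 without WT MET 2, RH MET 1 or RH MET 2), 1 to 4 for RH MET over RH VEH (4 without RH VEH 2, 2 without RH MET 1), 0 to 0 for RH VEH over RH MET, 1 to 3 for WT MET over WT VEH (3 without WT VEH 2) and 0 to 0 for WT VEH over WT MET. By limma the ranges were 0 to 2 in RH VEH versus WT VEH (Ins2 and Rtl1 without WT VEH 2, Igf2 without RH VEH 2), 1 to 1 in RH MET versus WT MET, 1 to 2 in RH MET versus RH VEH (2 without RH VEH 2), 0 to 1 in WT MET versus WT VEH (1 without WT VEH 2), 1 to 3 for genotype (3 without WT VEH 2, 2 without RH VEH 2), 1 to 3 for treatment (3 without WT VEH 2, 2 without WT VEH 1 or RH VEH 2) and 1 to 2 for the interaction (2 without WT VEH 2 or RH VEH 2). In these fits a group of 1 library is assumed to vary like the other groups, and 29 to 339 genes passed over the whole table.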
